A study of Homo sapiens with 8 samples.

Results

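The genes that set U937 apart from the other 3 cell lines of the series were compared in 8 RNA sequencing libraries. Each gene's mean in the 2 U937 libraries was set against the mean of the line means of EaHy, PC3M and HEK293, on the scale log2(FPKM + 0.5), where FPKM counts fragments per length of transcript and per depth of the library. Of 23615 gene symbols, the 16295 with at least 0.5 FPKM in 2 or more libraries were tested with limma, and 1187 of them were called higher and 1134 lower in U937 at a Benjamini-Hochberg adjusted p under 0.05. A further description was made of 321 genes absent only in U937, with both U937 libraries under 0.5 FPKM and the other 6 at 0.5 or more, and of 289 genes present only in U937, with the limits the other way round.

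U937 is a leukemic line of monocyte-like cells and was grown in RPMI medium, as was EaHy, labelled an endothelial line. PC3M is a prostate cancer line, given as PC3M-LN4 and grown in RPMI with added L-glutamine, and HEK293 is an embryonic kidney line grown in DMEM. Each line gave 2 libraries from total RNA depleted of ribosomal RNA, made from cells collected in duplicate, so p-values measure the spread between these libraries. U937 was the only blood-derived line, so what belongs to U937, to blood cells at large or to a leukemia cannot be told apart in this design. The series was made to look for receptors of epoxyeicosatrienoic acids in U937, EaHy and PC3M, which bind these lipids, and HEK293, which does not; the contrast described here crosses that division.

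Blood cells circulate singly and crawl, whereas endothelial, epithelial and kidney-derived cells are anchored to a matrix and to each other. Many cytoskeletal and signalling families hold a member used mainly in blood cells and a close relative used in most adherent cells, for example the actin-bundling plastins and the integrin-binding kindlins. PU.1, encoded by SPI1, is the transcription factor best known for switching on genes of the myeloid lineage, and binds a purine-rich box with the core GAGGAA.

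The 4 myeloid markers CTSG, ELANE, SPI1 and LAPTM5 were higher in U937 than in all 6 other libraries. CTSG was listed at 1184 and 1277 FPKM in the U937 libraries, against 3.29 and 0.9395 (EaHy), 0.104 and 3.53 (PC3M) and 3.95 and 0 (HEK293). ELANE was listed at 501 and 904 FPKM in the U937 libraries, against 1.85 and 0 (EaHy), 0 and 0 (PC3M) and 2.87 and 0 (HEK293). These granule proteases were at 501 FPKM or more in both U937 libraries and under 4 FPKM in every other. The log2 difference was 9.45 ± 0.99 (SE, n = 2 libraries per line, adjusted p = 0.000712) for CTSG and 9.57 ± 0.84 (adjusted p = 0.00037) for ELANE. SPI1 was listed at 50.99 and 143 FPKM in the U937 libraries, against 2.74 and 0 (EaHy), 0 and 0.1203 (PC3M) and 0.591 and 0.151 (HEK293), with a difference of 6.67 ± 0.74 (adjusted p = 0.00098). LAPTM5, which encodes a lysosomal protein of leukocytes, also reached 33.5 and 12.6 FPKM in EaHy against 204 and 461 in U937, and its groups did not overlap. Of 42 tested members of a list of myeloid markers, 37 were called higher and 1, the matrix proteoglycan VCAN, lower. The VCAN call was lost in 5 of 20 alternatives (adjusted p up to 0.22). Their median log2 difference was 4.43, against 0.37 for all tested genes, of which 7.28% were called higher and 6.96% lower. The 14 untested members, among them CD14, CSF1R, ITGAM and S100A8, reached 0.5 FPKM in fewer than 2 libraries.

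EaHy replicate 2 and both PC3M libraries differed in make-up from the remaining 5, with 65.1% to 83.0% of their FPKM in genes of small RNA against 18.4% to 51.0%. PC3M replicate 2 also had the lowest upper quartile of FPKM, at 4.05, against 10.3 to 21.4 in the other 7. Without these 3 libraries the median difference of all genes moved from 0.37 to -0.07, and 817 genes were called higher and 1645 lower, with 750 and 957 of the original calls among them. The median was -0.01 after upper-quartile scaling and 0.04 after quantile normalization, so differences in single genes below are to be read against a shift of up to about 0.4 on the log2 scale. Of the 1187 genes called higher, 1000 (6.14% of all tested) had both U937 libraries above all 6 others, and of the 1134 called lower, 646 (3.96%) had both below. Regardless of the test, 1883 genes (11.6%) lay above and 923 (5.66%) below without overlap. Leaving out U937 replicate 1 left 325 higher and 164 lower calls, and leaving out U937 replicate 2 left 281 and 93, with the remaining U937 library assumed to vary like the other lines. In both cases 915 of the 1187 higher genes were still tested, since genes at 0.5 FPKM or more only in U937 then have a single library at that level. With the 16295 genes kept, a setting chosen after the data were seen, the counts were 582 and 192 without U937 replicate 1 and 587 and 132 without replicate 2, and values without a U937 library below are from these fits. Where a call is said to be lost in some of up to 22 alternatives, both ways of leaving out a U937 library are counted. Leaving out HEK293 replicate 1 gave 721 and 631, and HEK293 replicate 2 776 and 599, whereas the count of higher calls rose to 2079 without EaHy replicate 1 and to 1888 without PC3M replicate 1.

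**Figure D1:**
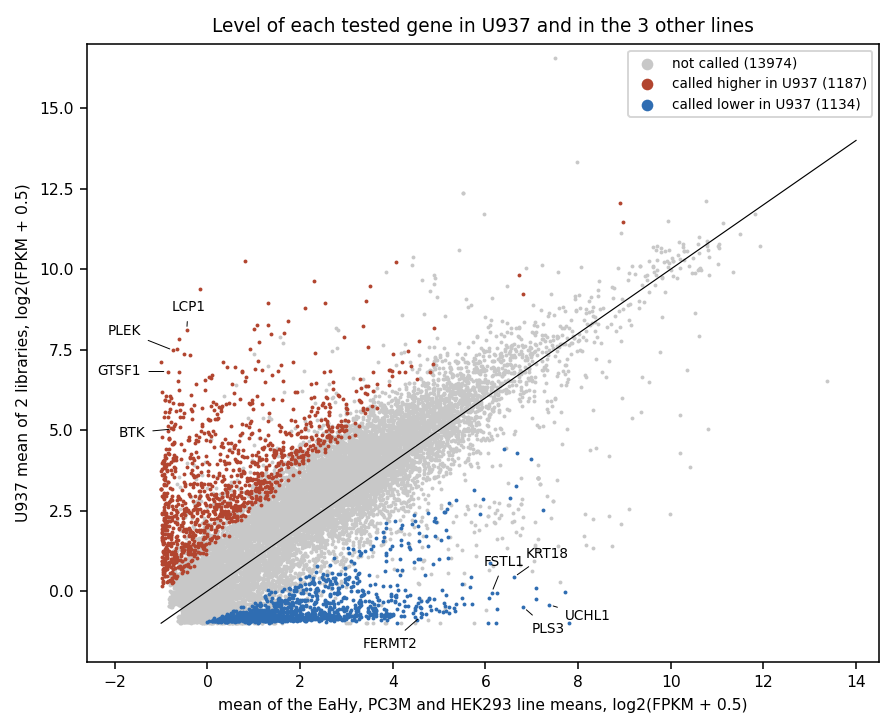
Each point is 1 of the 16295 tested genes, with its mean over the 3 other line means on the horizontal axis and its U937 mean on the vertical axis, both as log2(FPKM + 0.5), and the line marks equal levels. The 1187 genes called higher and the 1134 called lower lie on either side of the line, and the lower calls crowd along the floor of the U937 axis.

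Beyond the myeloid markers, the widest gaps above all other libraries belonged to cytoskeletal, adaptor and receptor genes of blood cells. PLEK encodes pleckstrin, a protein kinase C substrate of platelets and leukocytes. PLEK was listed at 154 and 204 FPKM in the U937 libraries, against 0.158 and 0 (EaHy), 0 and 0.128 (PC3M) and 0.3199 and 0.0549 (HEK293). All 6 other libraries were at or under 0.32 FPKM, and the difference was 8.21 ± 0.41 (adjusted p = 0.000103). LCP1 encodes L-plastin, the actin-bundling plastin of leukocytes. LCP1 was listed at 209 and 360.3 FPKM in the U937 libraries, against 0.679 and 0.02095 (EaHy), 0.0417 and 0.0328 (PC3M) and 0.643 and 0.269 (HEK293). Its difference was 8.55 ± 0.50 (adjusted p = 0.000103), the 2 groups of libraries being separated by 7.47 on the log2 scale between the lower U937 and the highest other library.

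Surface receptors and their chains were prominent among the 30 genes with the widest gap. CD4, the co-receptor for MHC class II that monocytes share with helper T cells, was at 80.7 and 105 FPKM in the U937 libraries, against 0.312 and 0 (EaHy), 0 and 0.0605 (PC3M) and 0.585 and 0.0627 (HEK293). No other library reached 1 FPKM, and the difference was 7.17 ± 0.44 (adjusted p = 0.000103). The T cell markers of the list did not accompany it: of 18 listed T and NK cell genes, 13 went untested for low values, CD3D, CD3E, CD2 and CD8A among them, and NKG7 was the single one called higher, at 1.95 and 16.3 FPKM in U937. IL2RG, the common gamma chain of several interleukin receptors, had 71.1 and 56.8 FPKM in U937 and lay at 0.557 or below elsewhere, a difference of 6.78 ± 0.42 (adjusted p = 0.000103). HCST, a signalling adaptor of activating receptors, had 43.6 and 69.6 FPKM in U937 and lay at or below 0.483 elsewhere (difference 6.42 ± 0.40, adjusted p = 0.000103). TNFSF13B, the B cell survival factor BAFF, had 46.3 and 49.8 FPKM in U937 and lay at or below 0.564 elsewhere (difference 6.29 ± 0.42, adjusted p = 0.000121).

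Among the 30 were also GTSF1, the XAGE1 genes and LAMP5, which are known mainly from other tissues. GTSF1 is a zinc-finger protein known from the germline, where it takes part in silencing of transposons through small RNAs. GTSF1 was listed at 92.1 and 137 FPKM in the U937 libraries, against 0.172 and 0 (EaHy), 0 and 0 (PC3M) and 0.167 and 0 (HEK293). Both U937 libraries were near 100 FPKM or above and no other reached 0.2, and the difference was 7.68 ± 0.40 (adjusted p = 0.000103). PIWIL4, a Piwi protein of the same germline pathway whose values were looked up afterwards, had 3.62 and 3.42 FPKM in U937 and lay at or below 0.136 elsewhere (difference 2.87 ± 0.27, adjusted p = 0.000477). XAGE1A, XAGE1B and XAGE1D, cancer-testis antigen genes on the X chromosome, are near-identical copies between which reads cannot be placed with certainty, so their values are uncertain one by one. XAGE1B reached 51.8 and 101.3 FPKM in U937, and the 5 tested of 9 listed XAGE genes were all called higher and all present only in U937. These 5 passed the filter on low values only through U937, so their count cannot show an excess over all tested genes. The near-identical copies are not separate results either. Of all tested genes, 7.28% were called higher and 6.96% lower. Of 16 tested MAGE genes, another family of such antigens, 6 were called lower and MAGEH1 higher, with the MAGEH1 call lost in 8 of 22 alternatives (adjusted p up to 0.17). MAGEH1 was at 5.17 and 3.73 FPKM in U937, below the 6.72 and 7.47 of EaHy.

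LAMP5, a membrane protein of the lysosomal LAMP family known from neurons and plasmacytoid dendritic cells, was at 37.3 and 59.4 FPKM in U937 and at most 0.155 elsewhere (difference 6.49 ± 0.37, adjusted p = 0.000103). CES1, a carboxylesterase of liver and of monocytes and macrophages, was at 36.1 and 96.6 FPKM in U937 and at most 0.305 elsewhere (difference 6.73 ± 0.46, adjusted p = 0.000138). SLC26A9, an epithelial chloride transporter best known from stomach and airway, was outside the 30 but among the genes present only in U937, at 26.5 and 21.2 FPKM in the U937 libraries, against 0.4402 and 0.0851 (EaHy), 0 and 0.106 (PC3M) and 0.0691 and 0 (HEK293). Both U937 libraries exceeded 20 FPKM and no other reached 0.5, and the difference was 5.33 ± 0.37 (adjusted p = 0.000138). RAB44, an unusually large Rab GTPase, was at 51.9 and 46.99 FPKM in U937 and at most 0.261 elsewhere (difference 6.45 ± 0.37, adjusted p = 0.000103). MX2, an interferon-induced antiviral GTPase, was at 29.1 and 47.6 FPKM in U937 and at most 0.309 elsewhere (difference 6.02 ± 0.37, adjusted p = 0.000103).

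All 30 genes with the widest gap above kept their call in every alternative that retained both U937 libraries, and all 30 did so without either U937 library when the tested genes were kept, whereas 9 of the 30 could be tested under the filter on low values. Among the 1000 genes called higher without overlap, the highest of the other libraries was EaHy replicate 1 for 345, HEK293 replicate 2 for 320 and HEK293 replicate 1 for 176. ELANE, for example, was listed at 1.85 FPKM in EaHy replicate 1 and 2.87 in HEK293 replicate 1 and at 0 in the other 4. Where these low values came from was not tested.

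**Figure D2:**
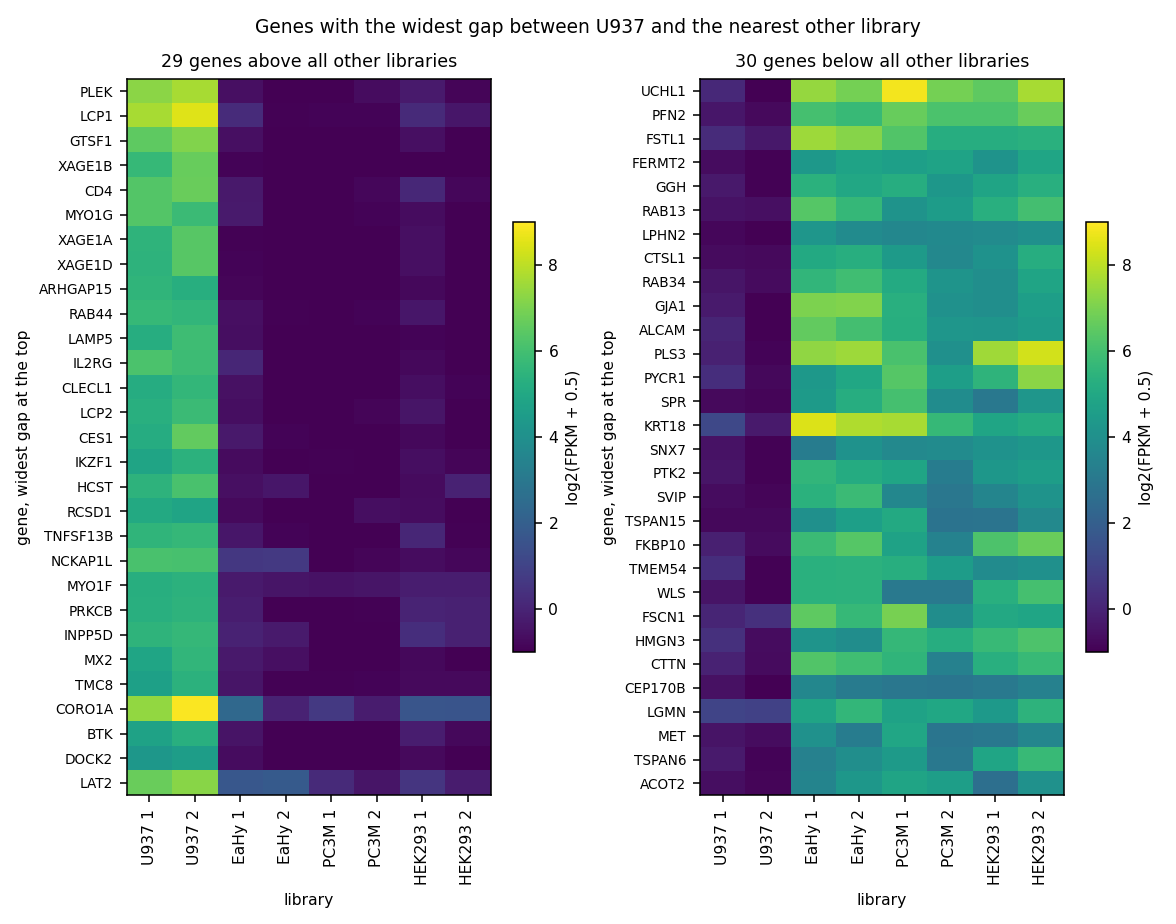
The colour gives log2(FPKM + 0.5) in each of the 8 libraries for 29 of the 30 genes called higher (left, without the myeloid marker list) and the 30 called lower (right) with the widest gap between the U937 libraries and the nearest other library. The 2 U937 columns are bright on the left and dark on the right for every gene, while levels among the other lines vary, as for KRT18, from 353 FPKM in EaHy replicate 1 to 29.3 in HEK293 replicate 1.

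Signalling genes of blood cells were higher as a group. Of 37 tested genes of the tyrosine kinase signalling list, 31 were called higher, all 31 without overlap, and 0 lower, with a median difference of 4.37. Dropping U937 replicate 1 or 2 left 29 and 29 called. BTK, the kinase that couples B cell and innate receptors to phospholipase C, was at 26.4 and 39.3 FPKM in the U937 libraries, against 0.221 and 0 (EaHy), 0 and 0 (PC3M) and 0.366 and 0.0755 (HEK293). No other library reached 0.5 FPKM, and the difference was 5.78 ± 0.39 (adjusted p = 0.000122). LCP2, an adaptor that gathers signalling proteins below antigen and Fc receptors, was at 38.8 and 55.1 FPKM in U937 and at most 0.244 elsewhere (6.37 ± 0.38, adjusted p = 0.000103). INPP5D, the lipid phosphatase SHIP of blood cells, was at 45.4 and 50.7 FPKM in U937 and at most 0.725 elsewhere (5.94 ± 0.38, adjusted p = 0.000104). LAT2, an adaptor of myeloid and B cells, was present at lower levels in other lines, with 2.82 and 3.07 FPKM in EaHy against 104 and 149 in U937 (6.36 ± 0.47, adjusted p = 0.000191).

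Among blood transcription factors, 18 of 27 tested were called higher, 17 of them without overlap, and 0 lower, with a median difference of 2.83. Leaving out U937 replicate 1 or 2 left 11 and 11. IKZF1, the lymphoid and myeloid zinc-finger factor Ikaros, was at 28.3 and 41.99 FPKM in the U937 libraries, against 0.119 and 0 (EaHy), 0.0145 and 0.0105 (PC3M) and 0.138 and 0.0556 (HEK293). It was at or under 0.14 FPKM outside U937 (difference 5.98 ± 0.36, adjusted p = 0.000103). GFI1, a transcriptional repressor needed for granulocyte development, was at 114.6 and 137 FPKM in U937, but also at 5.701 and 7.73 in HEK293 (6.55 ± 0.45, adjusted p = 0.000138). IRF8, which directs monocyte and dendritic cell fate, was at 83.8 and 68.2 FPKM in U937 and 2.57 and 1.98 in HEK293 (6.31 ± 0.41, adjusted p = 0.000111). MYB, a factor of immature blood cells, was at 106 and 132 FPKM in U937 and between 0.0526 and 4.07 elsewhere (5.85 ± 0.57, adjusted p = 0.000524).

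Of 21 tested markers of blood lineages other than the myeloid one, 6 (28.6%) were called higher, NKG7 among them, and 1 (4.76%) lower, against 7.28% and 6.96% of all tested genes. All 6 were present only in U937 and so passed the filter on low values only through U937. Markers low in every library went untested, so the share called higher cannot show an excess over all tested genes. BLNK, EBF1 and BANK1, listed as B cell markers, were higher, at 3.09 and 2.36, 1.49 and 0.849 and 1.35 and 0.667 FPKM in U937, and MME was lower; 7 of 15 were tested. TPSAB1, a mast cell tryptase, differed between the U937 libraries, at 3.83 and 70.5 FPKM, and was at or below 0.101 elsewhere (5.04 ± 0.87, adjusted p = 0.00728). The red cell factor KLF1 was called higher at 1.05 and 1.75 FPKM. The calls were lost in 5 of 19 alternatives (adjusted p up to 0.13) for EBF1, in 5 of 19 alternatives (adjusted p up to 0.11) for BANK1, in 3 of 22 alternatives (adjusted p up to 0.094) for MME and in 1 of 20 alternatives (adjusted p up to 0.051) for KLF1.

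MIR142, the gene of a microRNA used across blood lineages, was singled out after its values were seen. It was listed at 2.12 and 66.1 FPKM in the U937 libraries and at 0 in the 6 others. U937 replicate 2 was far above replicate 1, and the contrast was called (adjusted p = 0.0157, but 0.05 with no filter on low values, 0.067 with a robust prior and 0.078 without the 3 libraries rich in small RNA), with no fold given against lines listed at 0. The value belongs to the gene and not to either mature arm, and its call was lost in the alternatives given beside it. The mature arms are given to identify the gene, from RefSeq (GRCh38.p14, chromosome 17, minus strand), with the seed, bases 2 to 8, in capitals.
hsa-miR-142-3p, chr17:58331245-58331267: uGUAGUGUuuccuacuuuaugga
hsa-miR-142-5p, chr17:58331283-58331303: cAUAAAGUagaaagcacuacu

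Regulators of actin and small GTPases that blood cells use were higher as a group too. Of 35 tested, 32 were called higher, 30 of them without overlap, and 0 lower, with a median of 4.91. Without U937 replicate 1 and 2, 30 and 28 were called. CORO1A, an actin-binding coronin of leukocytes, was at 165 and 489 FPKM in the U937 libraries, against 4.66 and 0.466 (EaHy), 1.07 and 0.349 (PC3M) and 2.61 and 2.56 (HEK293). No other library reached 5 FPKM, and the difference was 7.16 ± 0.74 (adjusted p = 0.000684). ARHGAP15, a RAC-inactivating protein, was at 45.8 and 38.3 FPKM in U937 and at most 0.0871 elsewhere (6.34 ± 0.34, adjusted p = 0.000103). GMFG, an actin debranching factor of leukocytes, was at 105 and 103 FPKM in U937 and reached 3.49 in EaHy replicate 2 (6.62 ± 0.59, adjusted p = 0.00038).

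These lists led to a set of 34 pairs of relatives, each a blood-type member and a member used more widely. The pairs were drawn up with earlier results of these data known. In 14 pairs the blood-type member was called higher and its relative lower, in 15 the blood-type member was higher and the relative not called, and in 2, ARHGEF6 with ARHGEF7 and TNFAIP8L2 with TNFAIP8, both were higher. The calls of ARHGEF7 and TNFAIP8 were lost in 11 of 22 alternatives (adjusted p up to 0.26) and in 7 of 22 alternatives (adjusted p up to 0.25). In the pair LMNB1 and LMNA the first was lower and the second not called, and in MSN with EZR and STK17B with STK17A neither was called. Within the 14 opposite pairs, the groups overlapped for HCLS1 and for the relatives PARVA, SASH1 and CNN3. CNN3 was at 0.403 and 0.228 FPKM in U937 and 0.241 and 0.0986 in PC3M, so U937 did not lie below PC3M. The count of pairs with opposite calls was 17 after upper-quartile scaling, 16 without the 3 libraries rich in small RNA, 10 with no filter on low values, 10 and 9 without HEK293 replicate 1 and 2, and 7 and 6 without U937 replicate 1 and 2.

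**Figure D3:**
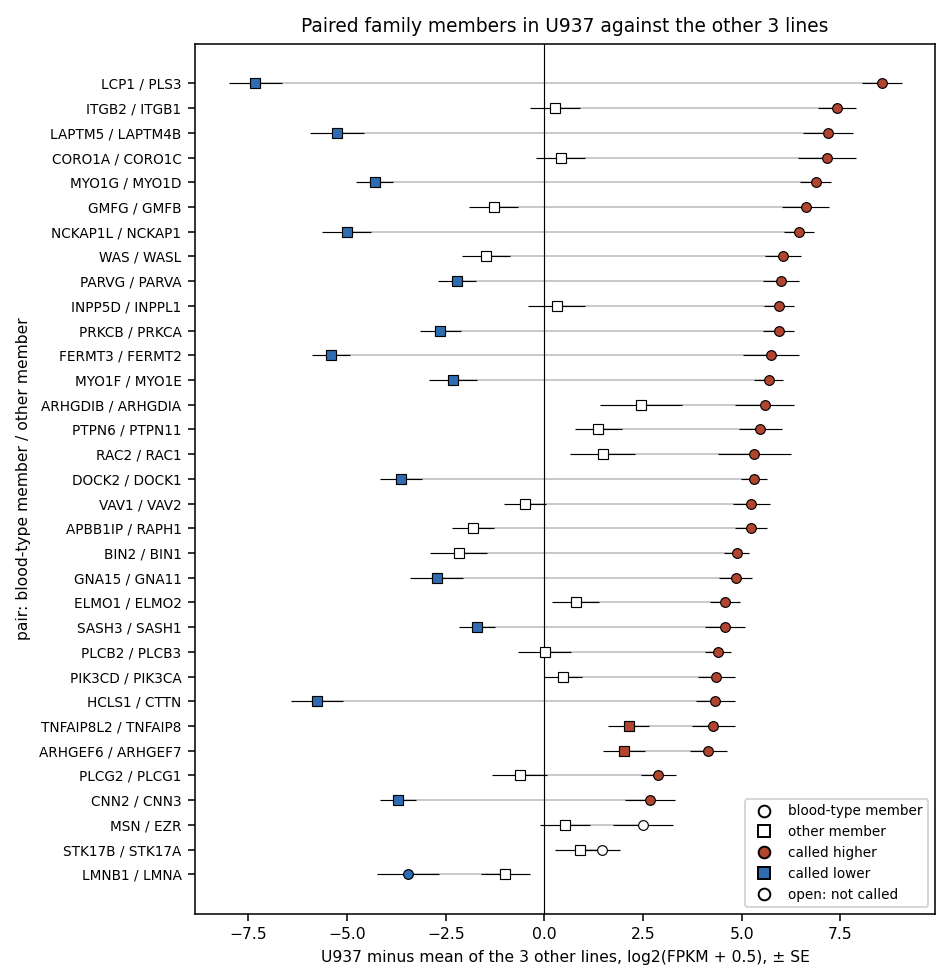
Each row is 1 of 33 of the 34 pairs, with the log2 difference of U937 from the mean of the 3 other lines for the blood-type member (circle) and its relative (square), bars giving the SE. Filled symbols were called, and 13 rows have a red circle to the right of 0 and a blue square to the left, from LCP1 with PLS3 down to CNN2 with CNN3.

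The plastins had the widest contrast of the pairs. LCP1 is described above; PLS3, the plastin of adherent cells, was listed at 0.441 and 0.0278 FPKM in the U937 libraries, against 162 and 186 (EaHy), 69.1 and 15.6 (PC3M) and 191 and 320.2 (HEK293). PLS3 was under 0.5 FPKM in U937 and above 15 in the 6 others, with a difference of -7.32 ± 0.67 (adjusted p = 0.00043). The kindlins, which bind the tails of integrins and activate them, had opposite calls too. FERMT3, the kindlin of blood cells, was listed at 38.04 and 87.95 FPKM in the U937 libraries, against 4.74 and 0.386 (EaHy), 0.481 and 0.154 (PC3M) and 0.479 and 0.0778 (HEK293), a difference of 5.74 ± 0.72 (adjusted p = 0.00165). FERMT2, the kindlin of focal adhesions, was listed at 0.1303 and 0.0266 FPKM in the U937 libraries, against 19.8 and 27.5 (EaHy), 24.5 and 27.6 (PC3M) and 16.9 and 29.1 (HEK293), a difference of -5.40 ± 0.48 (adjusted p = 0.00038). FERMT2 lay between 16.9 and 29.1 FPKM in the 6 other libraries and under 0.14 in both U937 libraries.

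The subunits of the WAVE complex, which starts actin branching at the leading edge, were opposite as well. NCKAP1L stood at 68.9 and 67.4 FPKM in the U937 libraries, against 1.05 and 1.06 (EaHy), 0 and 0.0466 (PC3M) and 0.124 and 0.0664 (HEK293). NCKAP1 stood at 0.312 and 0.0828 FPKM in the U937 libraries, against 35.9 and 33.5 (EaHy), 17.2 and 4.04 (PC3M) and 25.5 and 45.7 (HEK293). Neither gene's groups overlapped, and the differences were 6.45 ± 0.37 (adjusted p = 0.000103) and -5.01 ± 0.62 (adjusted p = 0.00161). In the cortactin pair the groups overlapped. CTTN, cortactin, was at 0.459 and 0.108 FPKM in U937 and between 10.02 and 78.3 elsewhere (-5.76 ± 0.65, adjusted p = 0.00101). HCLS1, its blood-cell relative, was at 43.6 and 84.8 FPKM in U937 but also at 59.7 and 63.8 in EaHy, so its groups overlapped, although the contrast with the mean of 3 lines was called (4.33 ± 0.49, adjusted p = 0.000995).

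Class I myosins and DOCK proteins, activators of RAC, gave further opposite pairs. MYO1G was at 79.4 and 56.04 FPKM in U937 and at most 0.333 elsewhere (6.87 ± 0.40, adjusted p = 0.000103), and MYO1D at 0.118 and 0.0105 in U937 and 1.795 to 41.7 elsewhere (-4.29 ± 0.47, adjusted p = 0.0009). DOCK2 was at 19.1 and 22.9 FPKM in U937 and at most 0.131 elsewhere (5.32 ± 0.33, adjusted p = 0.000103), and DOCK1 at 0.146 and 0.0239 in U937 and 0.953 to 14.3 elsewhere (-3.63 ± 0.53, adjusted p = 0.0035, but 0.063 without U937 replicate 2). SRC, a widely expressed tyrosine kinase, was lower at 0.131 and 0.509 FPKM in the U937 libraries, against 25.6 and 8.595 (EaHy), 16.5 and 2.61 (PC3M) and 6.75 and 9.72 (HEK293) (-3.63 ± 0.74, adjusted p = 0.0141, but 0.14 and 0.097 without U937 replicate 1 and 2). PRKCA and PRKCB, classical protein kinase C genes, differed by -2.64 ± 0.52 (adjusted p = 0.0128, but 0.13 and 0.13 without U937 replicate 1 and 2) and 5.93 ± 0.39 (adjusted p = 0.000111).

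Relatives without an opposite call included RAC1 and ITGB1. RAC1, the general RAC GTPase, was at 64.4 and 154 FPKM in the U937 libraries, against 94.8 and 20.99 (EaHy), 20.3 and 3.83 (PC3M) and 89.5 and 129 (HEK293), with overlapping groups and a difference of 1.47 ± 0.83 (adjusted p = 0.27). RAC2, its blood-cell relative, was at 100.3 and 131 FPKM in U937 and also at 26.5 in EaHy replicate 1 (5.32 ± 0.94, adjusted p = 0.00786, but 0.071 and 0.091 without U937 replicate 1 and 2). ITGB1, the beta chain of most matrix-binding integrins, was at 59.9 and 74.7 FPKM in U937 and 15.6 to 133 elsewhere (0.28 ± 0.64, adjusted p = 0.792), whereas ITGB2, the beta chain of leukocyte integrins, was at 70.9 and 175 and at most 0.534 (7.42 ± 0.48, adjusted p = 0.000111). A p over the threshold does not show that RAC1 or ITGB1 was equal in the lines.

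CpG is the dinucleotide that is dense in promoters of widely used genes. By the first promoter entry of each gene, the blood-type member had fewer CpG than its relative in 18 of the 22 pairs with both entries, as many in 1 and more in 3. Of the 8 such pairs with opposite calls it had fewer in 6 and more in 2, SASH3 with SASH1 (9 and 5) and CNN2 with CNN3 (38 and 37). Promoters of 3 opposite pairs with a wide difference in CpG are shown, picked after the counts were seen. The sequences run from 250 bases before to 50 after the start, 300 in all, from RefSeq (GRCh38.p14; the deposited values used hg19), written 5′ to 3′ on the gene's strand with every CpG in capitals. FERMT3 has a second entry, with 15 CpG.
MYO1G promoter, chr7:44978966-44979265, minus strand, 11 CpG: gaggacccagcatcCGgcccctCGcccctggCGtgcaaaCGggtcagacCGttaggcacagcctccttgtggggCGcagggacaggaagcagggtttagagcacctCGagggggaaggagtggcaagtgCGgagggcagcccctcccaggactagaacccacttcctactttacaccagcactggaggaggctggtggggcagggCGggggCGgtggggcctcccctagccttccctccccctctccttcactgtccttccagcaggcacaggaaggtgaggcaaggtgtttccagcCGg
MYO1D promoter, chr17:32877075-32877374, minus strand, 43 CpG: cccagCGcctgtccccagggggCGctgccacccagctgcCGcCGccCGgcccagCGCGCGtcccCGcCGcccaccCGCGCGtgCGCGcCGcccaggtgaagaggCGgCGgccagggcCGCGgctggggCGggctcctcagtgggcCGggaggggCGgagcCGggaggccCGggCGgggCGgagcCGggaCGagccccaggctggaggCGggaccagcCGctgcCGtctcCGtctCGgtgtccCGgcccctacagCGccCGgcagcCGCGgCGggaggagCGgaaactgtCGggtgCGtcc
FERMT3 promoter, chr11:64206471-64206770, plus strand, 9 CpG: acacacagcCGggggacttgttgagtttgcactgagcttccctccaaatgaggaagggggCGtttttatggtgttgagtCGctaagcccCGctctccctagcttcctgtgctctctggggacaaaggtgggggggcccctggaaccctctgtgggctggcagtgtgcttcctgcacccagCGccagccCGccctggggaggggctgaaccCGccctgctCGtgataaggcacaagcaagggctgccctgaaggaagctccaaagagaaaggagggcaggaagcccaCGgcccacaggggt
FERMT2 promoter, chr14:52951001-52951300, minus strand, 43 CpG: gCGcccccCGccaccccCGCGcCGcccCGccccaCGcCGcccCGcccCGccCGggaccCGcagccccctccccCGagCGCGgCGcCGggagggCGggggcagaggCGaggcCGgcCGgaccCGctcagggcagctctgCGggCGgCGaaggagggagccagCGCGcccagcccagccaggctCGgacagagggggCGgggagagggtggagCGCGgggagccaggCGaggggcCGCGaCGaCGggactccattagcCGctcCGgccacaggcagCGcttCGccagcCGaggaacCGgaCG
DOCK2 promoter, chr5:169637025-169637324, plus strand, 17 CpG: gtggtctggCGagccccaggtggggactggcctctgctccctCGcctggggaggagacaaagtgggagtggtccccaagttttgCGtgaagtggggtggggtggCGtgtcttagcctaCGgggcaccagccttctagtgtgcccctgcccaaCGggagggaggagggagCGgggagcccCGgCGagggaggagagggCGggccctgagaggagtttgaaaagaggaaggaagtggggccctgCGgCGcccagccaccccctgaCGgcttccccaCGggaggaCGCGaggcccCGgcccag
DOCK1 promoter, chr10:126905178-126905477, plus strand, 42 CpG: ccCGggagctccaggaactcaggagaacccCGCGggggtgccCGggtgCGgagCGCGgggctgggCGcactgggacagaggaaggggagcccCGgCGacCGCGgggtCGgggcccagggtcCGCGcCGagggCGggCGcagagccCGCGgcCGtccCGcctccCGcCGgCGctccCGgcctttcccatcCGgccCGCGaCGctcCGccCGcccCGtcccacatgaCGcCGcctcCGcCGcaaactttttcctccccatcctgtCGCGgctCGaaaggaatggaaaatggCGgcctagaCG

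Over the pairs, 27 of 34 blood-type members had a promoter entry, with a median of 10.5 CpG over 40 promoters, and 27 of 34 relatives, with a median of 29 over 47 promoters. The presence sets were chosen by values, and genes present only in U937 are by rule under 0.5 FPKM in the 6 other libraries. No like set of another line was counted, so whether their CpG content is particular to U937 was not tested. The 276 promoters of genes present only in U937 had a median of 6 CpG, with 67.4% of them under 10. The 381 promoters of genes absent only in U937 had a median of 23, near the median of 24 over the 17164 promoters of all tested genes, of which 20.4% were under 10. Genes called higher had a median of 15 and genes called lower of 22. Entries were found for 201 of 289 genes present only in U937, 241 of 321 absent only and 11854 of 16295 tested.

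**Figure D4:**
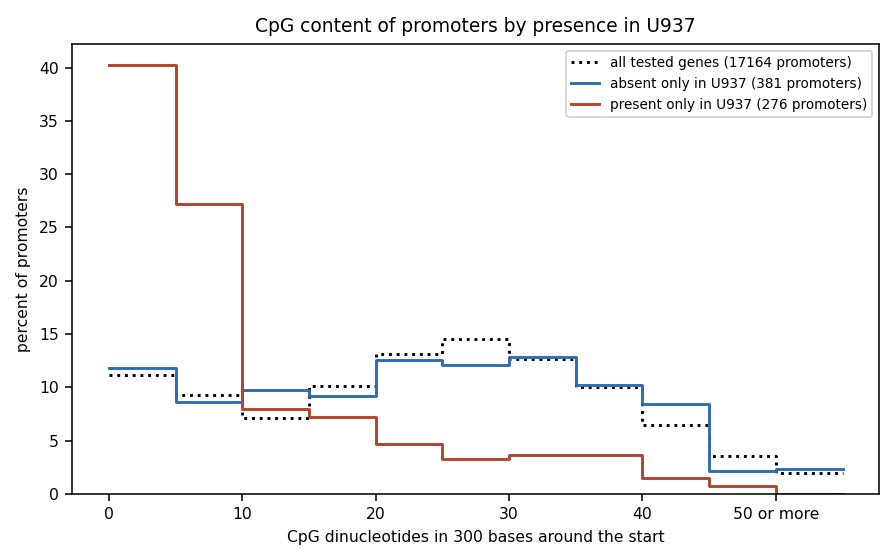
The lines give the percent of promoters in each class of CpG count (classes of 5, the last being 50 or more) for genes present only in U937, genes absent only in U937 and all tested genes. The genes present only in U937 pile up under 10 CpG (67.4%), while the genes absent only in U937 follow the curve of all tested genes.

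The core GAGGAA of the PU.1 box was searched on both strands (TTCCTC on the other) in the same windows. It was in 45.3% of promoters of genes present only in U937, 34.9% of those called higher, 23.9% of those of genes absent only in U937 and 27.5% of those of all tested genes. Among promoters with 0 to 9 CpG the shares were 48.4% (186 promoters) for genes present only in U937 and 34.2% (3501 promoters) for all tested. With 10 to 24 CpG they were 45.5% and 32.5%, and with more than 24 CpG 28.6% (35 promoters) and 21.7%. A gene with several promoters counts once for each, and whether PU.1 plays a part was not tested. The core CATTCC of the TEAD box was in 13.4%, 12.3% and 11.5% of promoters of genes present only, absent only and all tested, and the TATA box core TATAAA in 13.0%, 7.87% and 6.95%. A match is a run of letters and not a site shown to be bound. Of the 30 genes with the widest gap above, 21 had a promoter entry, and 14 of these held the core in at least 1 promoter. The other 7 did not, PLEK, MYO1G, ARHGAP15, PRKCB and the 3 XAGE1 genes. These counts are by gene, over any of its promoters, and cannot be set beside the shares by promoter. The share by gene over all tested genes was not counted. The promoters of 3 of the 14 are shown with each match in capitals, picked because they hold it.
LCP1 promoter, chr13:46182128-46182427, minus strand: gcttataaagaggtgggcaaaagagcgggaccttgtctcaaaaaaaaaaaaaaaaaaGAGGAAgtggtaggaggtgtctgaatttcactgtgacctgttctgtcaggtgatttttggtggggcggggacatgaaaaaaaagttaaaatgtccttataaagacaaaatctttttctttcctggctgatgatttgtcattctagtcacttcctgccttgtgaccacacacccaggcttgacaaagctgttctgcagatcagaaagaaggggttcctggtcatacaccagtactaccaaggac
GTSF1 promoter, chr12:54473553-54473852, minus strand: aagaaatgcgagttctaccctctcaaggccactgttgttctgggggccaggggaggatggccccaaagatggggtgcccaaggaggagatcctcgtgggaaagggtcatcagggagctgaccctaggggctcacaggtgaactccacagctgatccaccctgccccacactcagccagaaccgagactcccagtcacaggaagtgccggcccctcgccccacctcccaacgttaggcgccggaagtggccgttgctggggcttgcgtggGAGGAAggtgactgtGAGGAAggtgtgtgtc
LCP2 promoter, chr5:170297728-170298027, minus strand: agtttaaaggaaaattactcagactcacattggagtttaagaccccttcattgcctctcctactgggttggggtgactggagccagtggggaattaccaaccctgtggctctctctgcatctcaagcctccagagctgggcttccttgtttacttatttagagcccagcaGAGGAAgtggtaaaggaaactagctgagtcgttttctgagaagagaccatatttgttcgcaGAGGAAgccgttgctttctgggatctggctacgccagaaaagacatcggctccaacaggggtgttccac

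The genes with the widest gap below all other libraries had enzymes, actin regulators and adhesion proteins among them. UCHL1 encodes a deubiquitinating enzyme that is abundant in neurons and is made in many cultured lines. UCHL1 was listed at 0.601 and 0 FPKM in the U937 libraries, against 170.5 and 121 (EaHy), 456 and 118 (PC3M) and 91.6 and 207 (HEK293). U937 replicate 1 was just above the limit of 0.5 FPKM and every other line was at 91.6 or above, a difference of -7.81 ± 0.70 (adjusted p = 0.000401). PFN2, a profilin that feeds actin monomers to growing filaments, had the highest minimum of all genes absent only in U937. PFN2 was listed at 0.265 and 0.0989 FPKM in the U937 libraries, against 66.3 and 53.3 (EaHy), 101.0 and 71.9 (PC3M) and 71.2 and 104 (HEK293), a difference of -6.82 ± 0.50 (adjusted p = 0.000179). FSTL1, a secreted follistatin-like glycoprotein, was at 0.672 and 0.292 FPKM in U937 and 36.8 to 187 elsewhere (-6.19 ± 0.53, adjusted p = 0.000337).

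Matrix and secretory genes followed. FKBP10, a collagen chaperone, was at 0.408 and 0.117 FPKM in the U937 libraries, against 55.8 and 80.7 (EaHy), 26.8 and 10.4 (PC3M) and 72.4 and 103 (HEK293) (-5.96 ± 0.56, adjusted p = 0.000463). COL and LAM genes, collagens and laminins picked by symbol after the values were seen, had 10 of 31 and 7 of 20 tested symbols called lower. Over all tested genes 6.96% were lower and 7.28% higher, the background for these and the integrin symbols. The COL and LAM counts rest on prefixes that also take in COLQ and LAMP5, which were called higher. Integrin genes split, with 8 of 25 tested ITG symbols lower (among them ITGA2, ITGA3, ITGAV and ITGB5) and 4 higher, ITGB2, ITGAL, ITGA4 and ITGA7. The ITGAV call was lost in 10 of 22 alternatives (adjusted p up to 0.24), and the ITGAL call lost in 5 of 22 alternatives (adjusted p up to 0.1). PYCR1, an enzyme of proline synthesis, was at 0.751 and 0.0804 FPKM in U937 and 19.7 to 152 elsewhere (-5.73 ± 0.72, adjusted p = 0.00171).

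Lysosomal proteases went both ways. Of 15 tested CTS symbols, a prefix looked up after the values were seen, CTSF and CTSL1 were lower and CTSG, CTSH and CTSS higher. The other 10 were not called, and over all tested genes 6.96% were lower and 7.28% higher. The calls of CTSF and CTSH were lost in 6 of 22 alternatives (adjusted p up to 0.26) and in 2 of 22 alternatives (adjusted p up to 0.15). CTSF was at 0.198 and 0 FPKM in U937 and 0 and 0 in PC3M, so U937 did not lie below PC3M. CTSH was at 18.3 and 60.7 FPKM in U937 and 19.04 and 22.4 in HEK293, so its groups overlapped. CTSL1, cathepsin L, was at 0.119 and 0.0928 FPKM in the U937 libraries, against 33.02 and 37.6 (EaHy), 21.4 and 12.2 (PC3M) and 16.8 and 36.7 (HEK293). Both U937 libraries were under 0.12 FPKM and no other under 12, with a difference of -5.35 ± 0.52 (adjusted p = 0.000528). LGMN, the lysosomal protease legumain, was at 1.56 and 1.39 FPKM in U937 and 20.7 to 48.6 elsewhere (-4.02 ± 0.53, adjusted p = 0.00208). CD59, the inhibitor of the complement membrane attack complex, was at 0.495 and 0.0917 FPKM in the U937 libraries, against 169 and 239.8 (EaHy), 36.6 and 13.4 (PC3M) and 8.78 and 8.42 (HEK293) (-5.50 ± 0.56, adjusted p = 0.00064), its higher U937 value lying just inside the limit. GGH, gamma-glutamyl hydrolase of folate metabolism, was at 0.294 and 0.02696 FPKM in U937 and 19.3 to 40.9 elsewhere (-5.63 ± 0.51, adjusted p = 0.000415). SPR, sepiapterin reductase of tetrahydrobiopterin synthesis, was at 0.0887 and 0.0553 FPKM in U937 and 7.56 to 66.4 elsewhere (-5.29 ± 0.69, adjusted p = 0.00207). CYB5A, cytochrome b5, was at 0.283 and 0 and 7.06 to 46.3 FPKM (-5.11 ± 0.58, adjusted p = 0.00104).

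Among receptors and adhesion molecules, MET, the hepatocyte growth factor receptor, was at 0.226 and 0.131 FPKM in the U937 libraries, against 16.1 and 8.59 (EaHy), 29.6 and 6.83 (PC3M) and 7.48 and 11.4 (HEK293) (-4.16 ± 0.63, adjusted p = 0.00396, but 0.059 without U937 replicate 2). LPHN2, an adhesion receptor of the latrophilin family, was at 0.0662 and 0.00316 FPKM in U937 and within the range of 11.8 to 18.7 elsewhere (-4.79 ± 0.44, adjusted p = 0.00043). ALCAM, an adhesion molecule of the immunoglobulin family, was at 0.533 and 0 and 17.9 to 97.03 FPKM (-5.61 ± 0.55, adjusted p = 0.000554). Of the tetraspanins, TSPAN15, TSPAN6 and TSPAN9 were absent only in U937, and 7 of 19 tested TSPAN symbols were lower and 4, TSPAN2, TSPAN14, TSPAN32 and TSPAN33, higher. The TSPAN14 and TSPAN33 calls were lost in 9 of 22 alternatives (adjusted p up to 0.4) and in 11 of 22 alternatives (adjusted p up to 0.32). The Rab GTPases RAB13 and RAB34, of junction and cilium traffic, differed by -5.86 ± 0.50 (adjusted p = 0.000337) and -5.50 ± 0.53 (adjusted p = 0.000524), and of 74 tested Rab symbols 5 were lower and 7 higher, RAB44, RAB27A and RAB37 among the latter (6.96% and 7.28% over all tested genes).

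**Figure D5:**
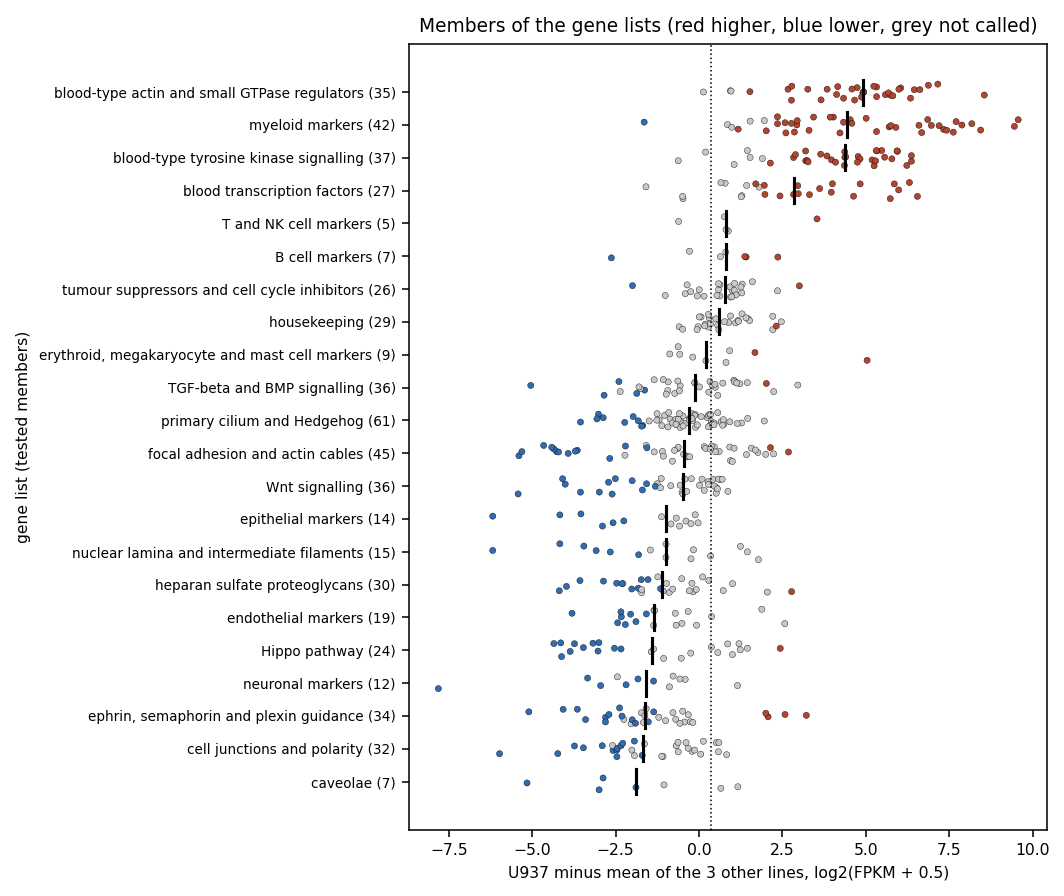
Each point is a tested member of 1 of the 22 gene lists, with its log2 difference of U937 from the mean of the 3 other lines, and the thick bars are list medians. The blood-type lists have medians from 2.83 to 4.91, to the right of the dotted line at the median of all tested genes (0.37), and the caveolae, junction and guidance lists lie to its left, from -1.89 to -1.61.

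The lists of adherent-cell functions held 0 to 4 higher calls each and more lower ones. Of all tested genes, 6.96% were called lower, 3.96% lower without overlap, and 7.28% higher. The junction and polarity list had 13 of 32 tested members lower, 8 of them without overlap, and 0 higher, with a median of -1.67. GJA1, the gap junction connexin of many tissues, was at 0.327 and 0.00594 FPKM in the U937 libraries, against 131 and 139 (EaHy), 39.1 and 16.3 (PC3M) and 14.8 and 24.2 (HEK293) (-5.98 ± 0.55, adjusted p = 0.00043). CDH2, N-cadherin, was at 0.255 and 0.0397 FPKM in U937 and 1.305 to 32.9 elsewhere (-4.23 ± 0.63, adjusted p = 0.00369, but 0.06 without U937 replicate 2), and TJP1, a tight junction scaffold, at 0.179 and 0.02102 and 0.402 to 22.4 (-3.47 ± 0.61, adjusted p = 0.00798, but 0.073 and 0.11 without U937 replicate 1 and 2). The counts of lower members without U937 replicate 1 and 2 were 3 and 2, and without HEK293 replicate 2 it was 8.

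The focal adhesion list had 13 of 45 members lower, 10 of them without overlap, and 2 higher, CNN2 and TLN2, with a median of -0.46. PTK2, focal adhesion kinase, was at 0.237 and 0.0176 FPKM in the U937 libraries, against 47.2 and 35.4 (EaHy), 28.8 and 8.69 (PC3M) and 19.3 and 23.2 (HEK293) (-5.31 ± 0.57, adjusted p = 0.000816). CALD1, caldesmon of actin cables, was at 0.188 and 0.0344 FPKM in U937 and 1.69 to 50.4 elsewhere (-4.66 ± 0.65, adjusted p = 0.0027). Of the caveolae list, 4 of 7 tested members were lower, 2 of them without overlap, and 0 higher, with a median of -1.89. CAV1, the main coat protein of caveolae, was at 0.723 and 0.0701 FPKM in the U937 libraries, against 373 and 517 (EaHy), 29.4 and 6.47 (PC3M) and 3.38 and 3.93 (HEK293) (-5.16 ± 0.66, adjusted p = 0.00186), so the groups were separate although EaHy was far above the rest. Without U937 replicate 1 and 2, 7 and 5 focal adhesion members and 2 and 1 caveolae members were lower, and 0 focal adhesion members were higher; without EaHy replicate 1, 4 were higher.

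The Hippo pathway restrains growth in anchored tissues through the cofactors YAP1 and WWTR1 and the TEAD factors. Of its 24 members 11 were lower, 9 of them without overlap, and 1, WWC3, higher, with a median of -1.40. The WWC3 call was lost in 2 of 22 alternatives (adjusted p up to 0.091). WWTR1, also called TAZ, was at 0.348 and 0.399 FPKM in the U937 libraries, against 45.5 and 44.8 (EaHy), 9.795 and 3.75 (PC3M) and 5.65 and 7.01 (HEK293) (-3.86 ± 0.50, adjusted p = 0.002). TEAD4 was at 0.478 and 0.05101 FPKM in U937 and 2.93 to 27.2 elsewhere (-4.12 ± 0.68, adjusted p = 0.00605, but 0.092 without U937 replicate 2). The targets CYR61 and CTGF were lower as well, the CTGF call being lost in 9 of 22 alternatives (adjusted p up to 0.26), with CYR61 at 0.425 and 0.02495 FPKM in U937 and 2.22 to 183 elsewhere (-4.15 ± 0.61, adjusted p = 0.00369, but 0.066 without U937 replicate 2). Without U937 replicate 1 and 2, 4 and 2 members were lower.

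Wnt signalling had 12 of 36 members lower, 9 of them without overlap, and 0 higher, with a median of -0.49. WLS, the carrier that takes Wnt proteins to the cell surface, was at 0.216 and 0.02302 FPKM in the U937 libraries, against 41.9 and 42.9 (EaHy), 7.75 and 7.84 (PC3M) and 39.04 and 65.01 (HEK293) (-5.42 ± 0.47, adjusted p = 0.00037). FZD6, a Wnt receptor, and LGR4, an R-spondin receptor, differed by -4.01 ± 0.54 (adjusted p = 0.0023) and -3.55 ± 0.56 (adjusted p = 0.00512, but 0.061 and 0.076 without U937 replicate 1 and 2). Wnt members called lower numbered 2 and 2 when U937 replicate 1 or 2 was left out. The guidance list of ephrins, semaphorins and plexins had 13 of 34 lower, 7 of them without overlap, and 4 higher, with a median of -1.61. EPHA2, an ephrin receptor kinase, was at 0.306 and 0.113 FPKM in U937 and 5.12 to 78.4 elsewhere (-5.10 ± 0.47, adjusted p = 0.00042). The semaphorin receptor PLXNC1 was higher, at 6.23 and 8.24 FPKM in U937 and at most 0.749 elsewhere (3.22 ± 0.38, adjusted p = 0.00121). SEMA4D, EPHB6 and PLXND1 were called higher as well, but the calls were lost in 6 of 22 alternatives (adjusted p up to 0.18), in 11 of 22 alternatives (adjusted p up to 0.3) and in 11 of 22 alternatives (adjusted p up to 0.27). PLXND1 was at 22.1 and 27.4 FPKM in U937, no higher than the 26.3 and 30.3 of EaHy. The guidance counts were 4 and 2 lower and 1 and 1 higher without U937 replicate 1 and 2, 8 lower and 2 higher without either HEK293 library, and 1 higher without the 3 libraries rich in small RNA.

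Heparan sulfate proteoglycans and their enzymes had 11 of 30 members lower, 4 of them without overlap, and 1, XYLT1, higher, with a median of -1.12. The XYLT1 call was lost in 2 of 22 alternatives (adjusted p up to 0.11). SDC1, a syndecan, was at 0.335 and 0.0174 FPKM in U937 and 3.74 to 30.1 elsewhere (-4.19 ± 0.61, adjusted p = 0.0035, but 0.061 without U937 replicate 2). EXT1, of the polymerase that builds the chains, was at 0.456 and 0.226 and 1.61 to 46.2 (-3.97 ± 0.64, adjusted p = 0.00533, but 0.054 and 0.076 without U937 replicate 1 and 2). The lower count was 1 and 0 without U937 replicate 1 and 2 and 7 without either HEK293 library. The nuclear lamina and intermediate filament list had 6 of 15 lower, 5 of them without overlap, and 0 higher, with a median of -0.99. LMNB1, B-type lamin, was lower at 3.02 and 2.07 FPKM in the U937 libraries, against 65.4 and 24.01 (EaHy), 27.1 and 3.91 (PC3M) and 56.5 and 113 (HEK293) (-3.45 ± 0.79, adjusted p = 0.0232, but 0.13 and 0.18 without U937 replicate 1 and 2 and 0.051 with no filter on low values). The list held 4 and 2 lower calls without U937 replicate 1 and 2.

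The cilium and Hedgehog list and the TGF-beta and BMP list lay nearer to the background of 6.96% lower and 7.28% higher over all tested genes. Of 61 cilium and Hedgehog members 9 were lower and 0 higher, with a median of -0.29. The lower count depended on the scaling, at 16 after upper-quartile scaling, 18 after quantile normalization and 14 without the 3 libraries rich in small RNA, and was 0 and 1 without U937 replicate 1 and 2 and 5 and 4 without HEK293 replicate 1 and 2. IFT172, of the transport train of cilia, was at 0.0914 and 0.00337 FPKM in U937 and 0.627 to 11.6 elsewhere (-3.01 ± 0.55, adjusted p = 0.00911, but 0.086 and 0.12 without U937 replicate 1 and 2). Of 36 TGF-beta and BMP members 5 were lower and 1, TGFBR1, higher, with a median of -0.13; the lower count ran from 13 without the 3 libraries rich in small RNA to 1 and 1 without U937 replicate 1 and 2, and was 2 and 1 without HEK293 replicate 1 and 2. The TGFBR1 call was lost in 13 of 22 alternatives (adjusted p up to 0.37). ID3, a target of BMP signals, was at 0.5196 and 0.184 FPKM in U937 and 5.04 to 49.5 elsewhere (-5.04 ± 0.68, adjusted p = 0.00226).

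Marker lists of endothelial, epithelial and neuronal cells held 0 higher calls in U937. Of the endothelial list 8 of 19 tested members were lower and 0 higher, its summed level being 1196 and 1359.5 FPKM in EaHy, 33.4 and 52.6 in U937 and 3.25 to 27.5 in the other 4 libraries. Each of the 8, CDH5 among them, overlapped other libraries. Of the epithelial list 6 of 14 were lower, 4 of them without overlap, at summed levels of 15.4 and 3.98 FPKM in U937 and 76.5 to 1333 elsewhere. KRT18, a keratin of simple epithelia, was at 1.72 and 0.323 FPKM in the U937 libraries, against 353 and 225 (EaHy), 206 and 51.5 (PC3M) and 29.3 and 34.99 (HEK293) (-6.18 ± 0.70, adjusted p = 0.00101). Of the neuronal list 6 of 12 were lower, 3 of them without overlap, at summed levels of 11.8 and 15.3 FPKM in U937 and 134 to 535 elsewhere. ELAVL2 and UCHL1 lay below all other libraries, whereas the groups overlapped for NEFL and NEFM, which did not separate U937 from EaHy. The higher U937 value of NEFL was 0.121 FPKM, against 0.0207 in EaHy replicate 2. NEFM was listed at 0 in both PC3M libraries, and only HEK293, with 77.0 and 57.7 FPKM, was far above U937. The housekeeping list had 1 of 29 members, GUSB, higher and 0 lower, with a median of 0.59. The GUSB call, at an adjusted p of 0.0498, was lost in 12 of 22 alternatives (adjusted p up to 0.29). Without U937 replicate 1 and 2, the lower counts were 1 and 0 endothelial, 2 and 1 epithelial, and 2 and 1 neuronal; they were 5 endothelial without either EaHy library, 3 and 5 endothelial without HEK293 replicate 1 and 2, and 3 neuronal without HEK293 replicate 2.

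The 321 genes absent only in U937 were 1.97% of the tested genes, and the 289 present only in U937 were 1.77%. Since values chose them, they carry no test of their own. Of the 321, 300 were called lower, 112 had at least 2 FPKM in each other library, 35 at least 5, and 11 at least 10. Of the 289, 272 were called higher, 153 had at least 2 FPKM in both U937 libraries, 77 at least 5 and 48 at least 10, and 12 were in the myeloid marker list. In 273 of the 321 genes U937 replicate 1 was above replicate 2, with medians of 0.196 and 0.0308 FPKM, and 2 were listed at 0 in both. In 200 of the 321 the lowest of the other libraries was PC3M replicate 2, and in 167 of the 289 the highest of the others was EaHy replicate 1. Without PC3M the first set held 629 genes, and without the 3 libraries rich in small RNA 833; without U937 replicate 2 the second held 769. At the limit, CARD10 was just inside the first set with 0.499 FPKM in U937 replicate 1, and NBL1 with 0.501 FPKM in EaHy replicate 1, whereas ZNF185 with 0.508 FPKM in U937 replicate 2 and DAB2IP with 0.497 FPKM in PC3M replicate 2 fell outside. For the second set ZNF626, with 0.501 FPKM in U937 replicate 2, and VSIG2, with 0.497 FPKM in EaHy replicate 1, were inside, and FAM46B, with 0.496 FPKM in U937 replicate 2, and PRKCB, which reached 0.5 FPKM in HEK293 replicate 1, were outside.

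Some genes of these sets are neighbours in the RefSeq gene order (GRCh38). Of 308 absent-only genes that could be placed, 18 pairs were direct neighbours, and of 248 present-only genes also 18 pairs. Whether other gene sets of the same size hold as many was not tested. C1orf115, MARC2 and MARC1, of which MARC1 and MARC2 encode molybdenum-containing reductases, followed each other and were all absent only in U937. MARC1 was at 0.0988 and 0 FPKM in the U937 libraries, against 1.71 and 1.44 (EaHy), 12.96 and 8.01 (PC3M) and 13.3 and 36.9 (HEK293) (-3.86 ± 0.52, adjusted p = 0.00237). MARC2 and C1orf115 differed by -3.48 ± 0.44 (adjusted p = 0.00171) and -3.82 ± 0.51 (adjusted p = 0.00224). Neighbours present only in U937 included receptor families that lie in clusters: LILRA1 with LILRA2, SIGLEC6 with SIGLEC12, MS4A4A with MS4A6A, CLECL1 with CD69, CD300A with CD300LB and GPR18 with GPR183. By symbol, 6 of 9 tested LILR, 5 of 7 MS4A, 7 of 16 CLEC and 4 of 10 SIGLEC genes were higher, against 7.28% of all tested genes. Of these higher genes, 5 LILR, 4 MS4A, 5 CLEC and 4 SIGLEC were present only in U937. They passed the filter on low values only through U937, so the family shares cannot show an excess over all tested genes. The MX2 and MX1 genes, and RSAD2 and CMPK2, interferon-induced neighbours, were present only in U937 as well. The calls of MX1 and RSAD2 were lost in 8 of 19 alternatives (adjusted p up to 0.14) and in 15 of 19 alternatives (adjusted p up to 0.28), those of CD300LB and MS4A4A lost in 5 of 19 alternatives (adjusted p up to 0.087) and in 5 of 19 alternatives (adjusted p up to 0.07).

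A longer run on the X chromosome was picked out after its values were seen. From GPRASP2 to TCEAL1, 16 genes follow each other, most of the BEX and TCEAL families of small proteins. Of the 14 tested, 9 were lower and 2, BEX1 and NXF3, higher, against 6.96% and 7.28% over all tested genes. Of the 9, 5 lost the call both without U937 replicate 1 and without replicate 2 (GPRASP2, BHLHB9, RAB40A, BEX4 and TCEAL3) and 4 kept it in both. BEX4 was at 0.2403 and 0.0403 FPKM in the U937 libraries, against 0.0912 and 0.0697 (EaHy), 0.694 and 0.118 (PC3M) and 32.3 and 81.3 (HEK293), so that U937 lay apart from HEK293 and not from EaHy. NGFRAP1, a BEX family member, was at 1.29 and 0.142 FPKM in the U937 libraries, against 295 and 323 (EaHy), 62.97 and 15.002 (PC3M) and 186 and 369 (HEK293) (-6.99 ± 0.72, adjusted p = 0.000673). WBP5 was at 0.536 and 0.0431 FPKM in U937 and 5.23 to 305 elsewhere (-6.12 ± 0.62, adjusted p = 0.000606), and TCEAL4 at 0.335 and 0 and 3.8003 to 106 (-5.78 ± 0.66, adjusted p = 0.00108). BEX1 ran the other way, at 199 and 335 FPKM in the U937 libraries, against 1.13 and 0.114 (EaHy), 6.94 and 1.42 (PC3M) and 4.83 and 12.3 (HEK293) (6.36 ± 0.72, adjusted p = 0.00102). The neighbouring SLFN genes were split: SLFN5 was lower at 0.167 and 0.2501 FPKM in U937 (-2.42 ± 0.41, adjusted p = 0.00637, but 0.09 and 0.088 without U937 replicate 1 and 2), while SLFN11, SLFN12 and SLFN13 were higher. SLFN12 was at 1.24 and 2.41 FPKM in U937 and 2.37 and 1.93 in EaHy, with overlapping groups and its call lost in 15 of 22 alternatives (adjusted p up to 0.36). SLFN11 was at 16.6 and 15.9 FPKM in U937 against 5.17 and 4.87 in EaHy (3.80 ± 0.37, adjusted p = 0.000552).

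Of 457 tested ZNF symbols, those of zinc-finger genes, 32 were higher and 31 lower, shares close to those over all tested genes (7.28% and 6.96%), while 11 were absent only and 3 present only in U937 (1.97% and 1.77% over all tested genes). Among tumour suppressors and cell cycle inhibitors, with 26 tested and a median of 0.78, RB1, which holds back entry into the cell cycle, was higher. RB1 was at 34.8 and 38.9 FPKM in the U937 libraries, against 6.53 and 3.14 (EaHy), 2.13 and 0.1802 (PC3M) and 10.8 and 18.7 (HEK293) (3.01 ± 0.63, adjusted p = 0.0167, but 0.12 and 0.15 without U937 replicate 1 and 2 and 0.055 without the 3 libraries rich in small RNA), and its call was lost in the alternatives given beside it. CDC25C, a phosphatase that starts mitosis, was chosen after its values were seen and was absent only in U937, at 0.0889 and 0.099998 FPKM in the U937 libraries, against 9.16 and 5.04 (EaHy), 4.105 and 1.35 (PC3M) and 8.39 and 13.7 (HEK293) (-3.39 ± 0.52, adjusted p = 0.00439, but 0.062 and 0.066 without U937 replicate 1 and 2). AASS and ALDH7A1, enzymes of lysine breakdown chosen in the same way, were also absent only in U937, with ALDH7A1 at 0.119 and 0.0775 FPKM in U937 and 1.06 to 26.2 elsewhere (-3.79 ± 0.57, adjusted p = 0.004, but 0.053 and 0.061 without U937 replicate 1 and 2) and AASS at 0.349 and 0.437 and 0.5603 to 11.8 (-2.41 ± 0.53, adjusted p = 0.0204, but 0.053 without HEK293 replicate 1, 0.16 and 0.16 without U937 replicate 1 and 2 and 0.052 with no filter on low values).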

How the data were processed

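Total RNA of U937, EaHy, PC3M and HEK293, depleted of ribosomal RNA, was sequenced as paired-end reads in 2 libraries per line. The deposited table lists 1 FPKM value per gene symbol and library, made by the authors with cutadapt, TopHat2 2.0.11 and Cufflinks 2.2.1 against hg19, per the submitters' processing notes. Normalization between libraries is not given in the sources used here, and without counts the depth is unknown.

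The transform log2(FPKM + 0.5) was fitted with limma 3.58.1 (R 4.3.3), with a term per line, a variance prior that follows the level, and the contrast of U937 with the mean of the 3 other line means. Two-sided tests were corrected by the Benjamini-Hochberg procedure over 16295 genes with at least 0.5 FPKM in 2 libraries, and an adjusted p under 0.05 was called. The fit was tested on simulated data.

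The members, the 22 gene lists and the 34 pairs were chosen with earlier results of these data known. Genes named were the 30 per direction with the widest gap, the 25 at the head of each presence set, up to 4 called members per list and direction, both members of each pair and the genes at the limits; others are said to be chosen after their values were seen. Proteins were not used here. Values of 2 genes, and 1 pair in the plots, are not reported here, although the counts include them. Differences between replicates correlated at -0.15 to 0.33 between lines, so replicate numbers were not taken as pairs. Alternatives were other pseudocounts, filters, scalings, priors and presence limits, a replicate block and leaving out libraries.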

Additional observations from a re-analysis of the deposited data

How the results depend on the processing

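None of the named genes changed sign with a call under any alternative. With pseudocounts of 0.1 and 1, a filter at 1 FPKM, a rescaled total, a single prior or a robust prior, and a replicate block, the counts of higher (1187) and lower (1134) calls stayed within 1.5 times; the replicate block, which has no basis as a pairing, gave 1069 and 1064. The lower calls numbered 733 with no filter on low values, 1810 after upper-quartile scaling and 1990 after quantile normalization. The lower calls without overlap (646) numbered 1113 and 1202 under these scalings, 1145 without PC3M and 1417 without the 3 libraries rich in small RNA. Leaving out each library gave 281 to 2079 higher and 93 to 1419 lower calls, and 272 to 1428 and 87 to 878 without overlap. With the tested genes kept, a setting chosen after the data were seen, leaving out U937 replicate 1 and 2 gave 582 and 587 higher, 192 and 132 lower, and 562, 577, 176 and 121 without overlap. Genes absent only in U937 (321) numbered 326 to 471 without 1 library, 629 without PC3M, 833 without the 3 libraries and 38 at limits of 0.1 and 1 FPKM. Genes present only in U937 (289) numbered 296 to 769 without 1 library and 55 at those limits. Why the counts moved was not tested. With 2 libraries per line and no counts, differences of low genes are understated by the pseudocount, and a value near 0.5 FPKM does not show presence or absence.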
